A study of Mus musculus with 2 samples.

Results

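The receptors examined here were Il7r, the gene of the interleukin 7 (IL-7) receptor alpha chain, and the genes of the cytokine receptor family built around the common gamma chain. The members were a list of 9 genes: Il7r, Il2rg, Il4ra, Il21r, Il2ra, Il2rb, Il9r, Il15ra and Il13ra1. The list was selected on the log2 difference between these arrays, in which Il7r stood out, so those values are a description and no test is made of them. A probe set (a group of short probes that read 1 transcript) was used where the platform annotation named only that gene. This gave 18 probe sets for 8 of the 9 genes, out of 18193 genes measured, and Il2rg was not analysed here. The samples were cultured and activated mouse B cells on a C57 background, 1 array labelled mir155 KO, a genotype without the microRNA miR-155, and 1 array labelled mir155 WT. How the cells were activated, the age of the animals and whether several were pooled are not stated in the labels. All cells had received cycloheximide, an inhibitor of translation, at 100 ug/ml for 8 min before harvest. The animals were male. The growth protocol in the labels instead describes progenitors kept 6 days in G-CSF and stem cell factor.

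These receptors are assembled from a small set of chains. The common gamma chain (Il2rg) pairs with a private chain that binds the cytokine: the IL-7 receptor alpha chain for IL-7, the IL-4 receptor alpha chain for IL-4, and likewise for IL-9 and IL-21, while IL-2 and IL-15 use a shared beta chain and an alpha chain each. Binding brings the kinases JAK1 and JAK3 together, and these phosphorylate STAT proteins. In mice, IL-7 is needed for B cell development in the bone marrow and for the survival of T cells, IL-4 drives class switching of activated B cells, and IL-21 acts on germinal centre and plasma cells.

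The labels contradict each other on which array is which. The titles and genotype entries give the assignment used here, and the source names give the opposite for both arrays, so that every sign below turns over if the source names are right. Mir155hg, the host transcript of miR-155, had a log2 level of 10.88 on the array labelled mir155KO and 6.63 on the array labelled mir155WT, which goes against the titles. Whether its probe set falls within the deleted stretch is unknown here, and a probe set outside that stretch does not check the labels. All differences are the array labelled mir155KO minus the array labelled mir155WT on the log2 scale, in which 1 unit is a 2-fold difference. With 1 array per label, there is no replicate, no test and no error on any value, and differences are described by size alone. In bulk RNA, fewer cells of a type and less RNA per cell cannot be told apart. A probe set counted as expressed where its mean over both arrays reached 6.71, which is the median level of the table without its control probe sets. The only spread in the data was that between probe sets of the same gene, from 4906 genes with several expressed probe sets. It was taken on the same 2 arrays and holds no spread between arrays or animals. A difference above it is therefore not shown to hold beyond these arrays. The gap between the differences of a gene's brightest pair of probe sets had a median of 0.084 and a 95th percentile of 0.31.

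The mature microRNA is printed because its loss defines the comparison, with its seed, bases 2 to 8, in capitals. The promoters of Il7r and Il2ra are printed because these were the members whose promoters held the ETS motif described below. Both genes also read lower on the array labelled mir155KO, Il2ra by far less, and no link between motif and difference was tested. Sequences are from RefSeq (GRCm38.p6), 5′ to 3′, the promoters running from 250 bases before the start site to 50 bases from it on. Promoters were found for 8 of the 9 listed genes (Il2rb was the other). Capitals in the promoters mark motif matches. miR-155-5p lies at chr16:84714143-84714165 (+), the Il7r promoter at chr15:9529827-9530126 (-) and the Il2ra promoter at chr2:11642542-11642841 (+).
mmu-miR-155-5p: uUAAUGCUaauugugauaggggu
Il7r promoter: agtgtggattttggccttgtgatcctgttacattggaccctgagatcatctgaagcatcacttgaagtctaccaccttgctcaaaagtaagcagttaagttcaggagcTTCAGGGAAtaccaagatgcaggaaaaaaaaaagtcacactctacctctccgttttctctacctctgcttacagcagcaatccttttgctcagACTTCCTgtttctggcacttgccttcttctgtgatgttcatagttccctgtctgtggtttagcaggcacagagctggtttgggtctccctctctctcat
Il2ra promoter: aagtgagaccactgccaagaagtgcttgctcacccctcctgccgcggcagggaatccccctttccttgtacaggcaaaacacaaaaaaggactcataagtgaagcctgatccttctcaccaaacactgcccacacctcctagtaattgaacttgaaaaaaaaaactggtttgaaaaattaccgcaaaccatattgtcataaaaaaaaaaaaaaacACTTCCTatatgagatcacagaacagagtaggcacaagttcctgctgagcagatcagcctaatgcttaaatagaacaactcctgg

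Il7r was much lower on the array labelled mir155KO, on both of its probe sets. Probe set 1448575_at had a level of 8.98 on the array labelled mir155KO and 10.59 on the array labelled mir155WT, a difference of -1.60 (3.04-fold lower). Probe set 1448576_at had 7.10 on the array labelled mir155KO and 8.73 on the array labelled mir155WT, a difference of -1.63 (3.09-fold lower). All 4 levels were above the array median of 6.71, although 1448576_at on the array labelled mir155KO, at 7.10, was not far above it. The probe sets disagreed by only 0.025, less than the median disagreement of 0.084 between probe sets of other genes. Among 10717 expressed genes Il7r had the second lowest difference, after the interferon-induced gene Oasl2 (-1.63). Of these genes 15 (0.14%) were lower by 1 or more and 2 (0.0187%) were higher by as much.

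**Figure D1:**
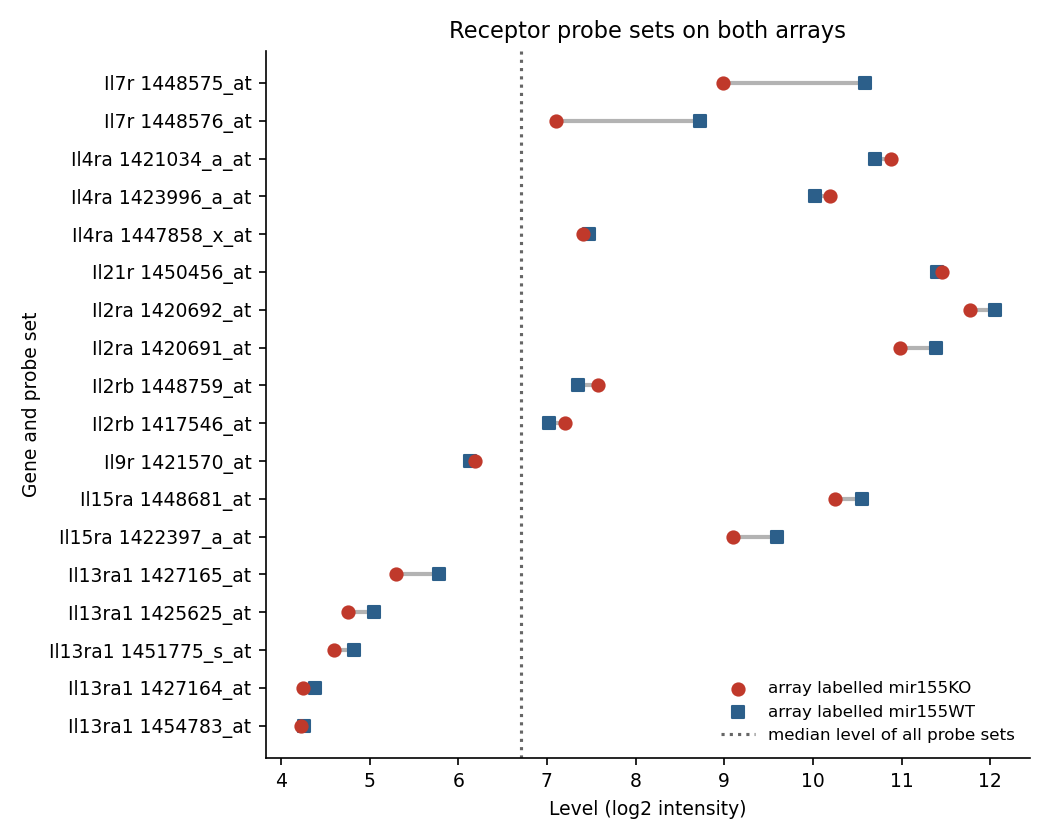
Level of each receptor probe set (log2 intensity, x axis) on the array labelled mir155KO (red circles) and the array labelled mir155WT (blue squares), with a dotted line at the median of all probe sets, 6.71. The 2 Il7r probe sets have the widest gaps, and every probe set of Il13ra1 and Il9r lies left of the line. Levels of different probe sets cannot be compared with each other, because their probes differ in how brightly they bind.

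The alpha chains of the IL-2 and IL-15 receptors also read lower on the array labelled mir155KO on each of their probe sets, by far less. Their brighter probe sets were within the disagreement between probe sets, and those alone give no direction. Il2ra encodes CD25, the alpha chain that raises the affinity of the receptor for IL-2 and is induced when lymphocytes are activated. Its probe set 1420692_at had a level of 11.77 on the array labelled mir155KO and 12.05 on the array labelled mir155WT (difference -0.28). Its probe set 1420691_at had 10.99 on the array labelled mir155KO and 11.39 on the array labelled mir155WT (difference -0.41). Il15ra encodes the chain that holds IL-15 on the cell surface and presents it to neighbouring cells. Its probe set 1448681_at had a level of 10.25 on the array labelled mir155KO and 10.56 on the array labelled mir155WT (difference -0.30). Its probe set 1422397_a_at had 9.10 on the array labelled mir155KO and 9.59 on the array labelled mir155WT (difference -0.49). All 4 probe sets of the pair therefore lay on the same side, and those at -0.41 and -0.49 were outside the central 95% of expressed genes, which ran from -0.39 to 0.37. The smaller differences, -0.28 and -0.30, were below the 0.31 that separates probe sets of the same gene at the 95th percentile.

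The signalling beta chain was close on the arrays. Il2rb encodes the chain that the receptors for IL-2 and IL-15 share, and it had a level of 7.58 on the array labelled mir155KO and 7.35 on the array labelled mir155WT with probe set 1448759_at (difference 0.23). Probe set 1417546_at had 7.21 on the array labelled mir155KO and 7.02 on the array labelled mir155WT (difference 0.19). Both levels of both probe sets were within 1 log2 unit of the array median. Both differences were smaller than 0.31 and inside the central 95% of expressed genes, so a direction of Il2rb cannot be told from these values. The same holds for the brighter probe sets of Il2ra and Il15ra taken alone.

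The receptors through which IL-4 and IL-21 act on B cells were close on the arrays. Il4ra, the IL-4 receptor alpha chain, had levels of 10.87 on the array labelled mir155KO and 10.70 on the array labelled mir155WT with probe set 1421034_a_at (difference 0.18), and 10.19 on the array labelled mir155KO and 10.02 on the array labelled mir155WT with 1423996_a_at (difference 0.17). The remaining probe set, 1447858_x_at, had 7.41 on the array labelled mir155KO and 7.47 on the array labelled mir155WT (difference -0.07). Il4ra was thus the only one of the 6 members with several probe sets whose probe sets did not all share a sign, and the _x_at suffix marks probes that may also bind other transcripts. Il21r, the private chain of the IL-21 receptor, was read by a single probe set with 11.46 on the array labelled mir155KO and 11.40 on the array labelled mir155WT (difference 0.06). Each of these differences was smaller than 0.31, the 95th percentile of disagreement between probe sets.

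Il9r and Il13ra1 were not expressed by the criterion used. Il9r, the IL-9 receptor chain, had a level of 6.19 on the array labelled mir155KO and 6.13 on the array labelled mir155WT. Il13ra1 encodes the chain that joins the IL-4 receptor alpha chain, in place of the common gamma chain, in the type II receptor for IL-4 and IL-13. Its 5 probe sets were all below the median level on both arrays, at 4.23 to 5.30 on the array labelled mir155KO and 4.26 to 5.78 on the array labelled mir155WT. Their differences ran from -0.48 to -0.04, and since a level this low may be mostly background no fold is given.

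As a family the expressed receptors were split in direction. Of 8 measured members 6 were expressed, and with 1 value a gene (its probe set with the highest mean) 3 of these were lower and 3 higher on the array labelled mir155KO. Over all expressed genes 42.1% were lower by any amount. Il7r was the single member lower by 0.5 or more, and 0 members were higher by as much. Over all expressed genes 1.31% were lower and 0.681% higher by 0.5 or more. The median of the 6 members was -0.11, against 0.03 for all expressed genes. That median includes Il7r, whose difference stood out when the list was selected, so no lean of the family is read from it. The other expressed members ran from -0.30 (Il15ra) to 0.23 (Il2rb). Of the 12 expressed probe sets of members, 7 were lower and 5 higher, where 40.2% of all singly named expressed probe sets were lower, and probe sets of 1 gene are not independent. Of the same 12 probe sets 8 lay inside the central 95% of expressed genes. The other 4 were both probe sets of Il7r, 1 of Il2ra and 1 of Il15ra.

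**Figure D2:**
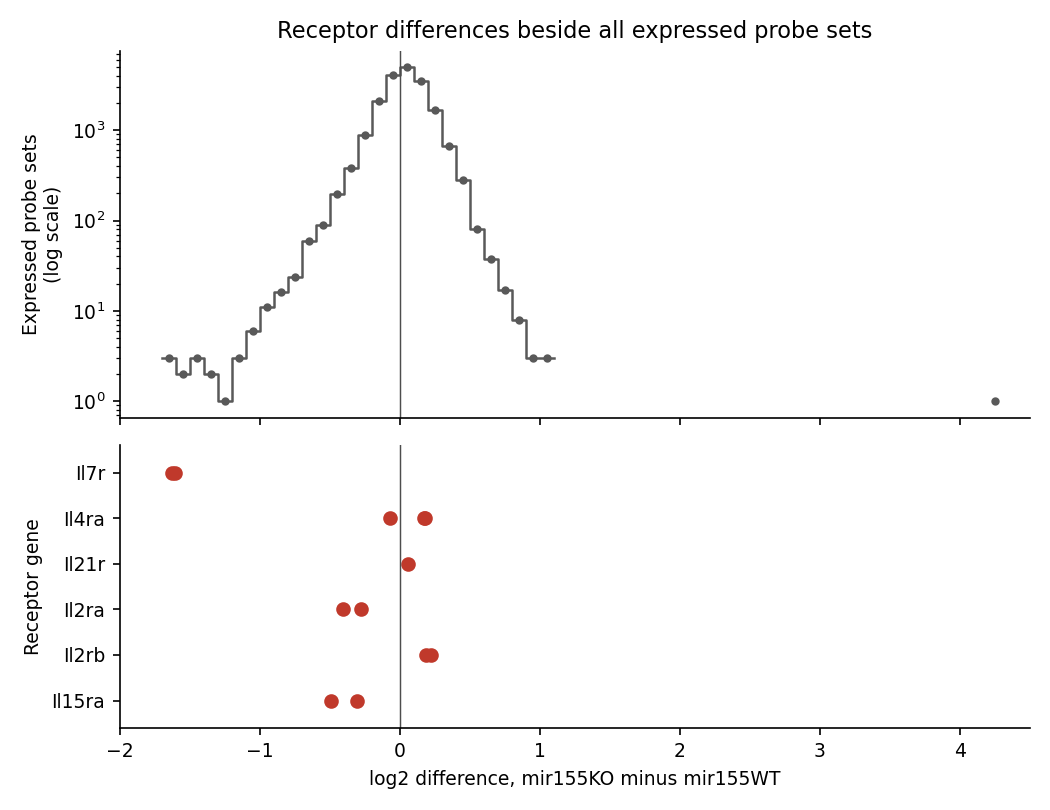
Top, number of expressed probe sets (log scale) in each bin of 0.1 of the log2 difference, mir155KO minus mir155WT (x axis). Bottom, the expressed probe sets of each receptor gene on the same axis, with both Il7r points at the far low end (-1.60 and -1.63) and the other 5 genes between -0.49 and 0.23; the lone point at 4.25 on top is Mir155hg.

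The genes with the most similar pair of levels to Il7r were listed as a description. Likeness was measured as the distance between pairs of log2 levels over the 2 arrays, among 10716 other expressed genes. The nearest gene was Bach1, a haem-regulated transcriptional repressor, at a distance of 0.42, with a level of 9.37 on the array labelled mir155KO and 10.44 on the array labelled mir155WT. Hmox1, the inducible haem oxygenase, followed at 0.44, with 9.39 on the array labelled mir155KO and 10.42 on the array labelled mir155WT. Prdm1, which encodes the plasma cell regulator Blimp-1, lay at 0.48, Anxa2, a calcium-dependent membrane-binding protein, at 0.50 and the Schlafen family gene Slfn1 at 0.53. Bach1 was read at -1.06 by its brighter probe set and at -0.34 by the other, so the likeness holds for the brighter one alone. All 5 had a smaller difference than Il7r, from -1.19 for Prdm1 to -0.90 for Slfn1. The measure uses the same 2 levels as the difference, so that these genes are also lower on the array labelled mir155KO follows from how they were picked. It also sets levels of different probe sets side by side, which depend on how brightly each binds.

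The low value on chromosome 15 was that of Il7r and not of the genes around it. The 5 nearest expressed genes on each side of Il7r had differences between -0.23 (Slc1a3, a glutamate transporter) and 0.27 (Rad1, a DNA damage checkpoint protein), with a median of 0.08, and 0 of the 10 differed by 0.5 or more. Skp2, an F-box protein of the cell cycle, was the neighbour on the lower side (0.10) and Dnajc21, a ribosome biogenesis cofactor, the neighbour on the other (0.01). Il4ra and Il21r are adjacent among the expressed genes of chromosome 7, and the 10 genes around them had a median of 0.08, with Sbk1, a kinase gene, highest at 0.70. Il2ra and Il15ra are likewise adjacent on chromosome 2, a block examined only after their values were seen. The 10 genes around this pair had differences between -0.23 (Trdmt1, an RNA methyltransferase) and 0.21 (Prkcq, a protein kinase C of lymphocytes), with a median of 0.04. Gene order was taken from GRCm38.p6.

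**Figure D3:**
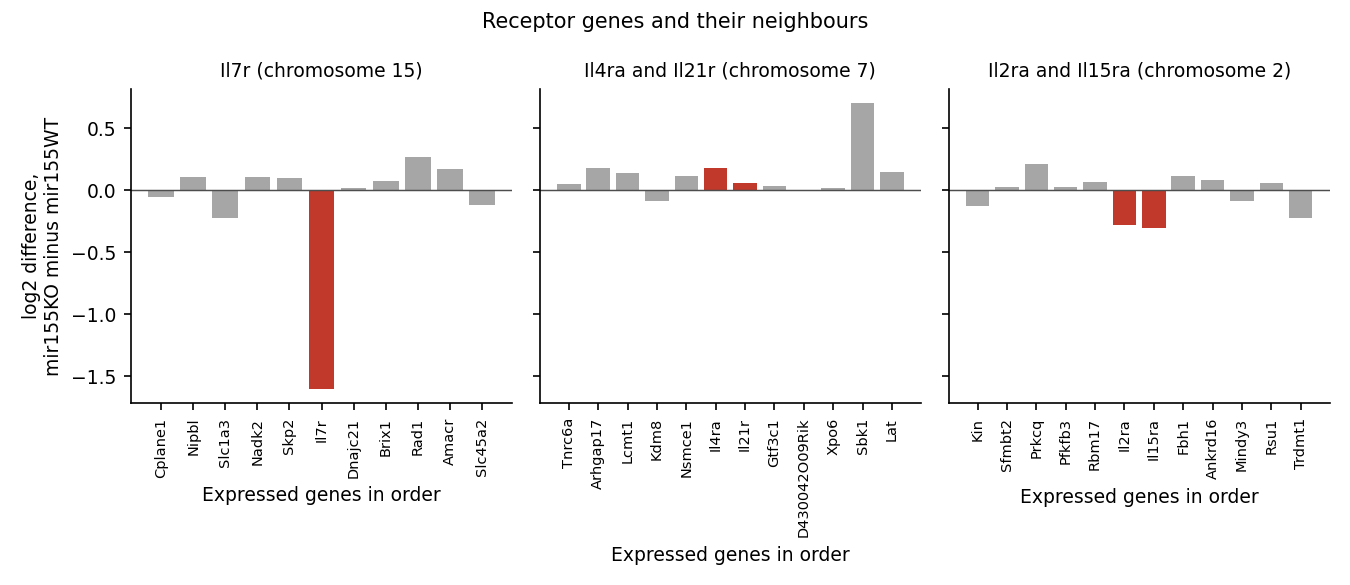
log2 difference, mir155KO minus mir155WT (y axis), of the receptor genes (red bars) and the 5 nearest expressed genes on each side (grey bars), in chromosomal order without distances. Il7r at -1.60 stands alone among neighbours between -0.23 and 0.27, and Il2ra and Il15ra lie together just below their neighbours.

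Ligands of the family were mostly below the median level of the table. Of 8 measured ligand genes, 6 were below the median level on both arrays, among them Il7 (4.08 on the array labelled mir155KO and 4.30 on the array labelled mir155WT), Il2, Il4 and Il21. The expressed ligands were Il15, with a level of 7.74 on the array labelled mir155KO and 8.13 on the array labelled mir155WT (difference -0.39), and Il9, with 6.82 on the array labelled mir155KO and 7.12 on the array labelled mir155WT (difference -0.30). Il15 was read by 1 probe set. Il15ra, the chain that presents its product, was at -0.30 by its brighter probe set, below the 0.31 that separates probe sets of the same gene. It was at -0.49 by the other, and no joint change is read from these values.

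The machinery that carries the receptor signal differed little. In the list of kinases, STATs, adaptors and phosphatases, 18 of 18 measured genes were expressed. On the array labelled mir155KO 7 were lower and 10 higher, and 0 differed by 0.5 or more. Over all expressed genes 42.1% were lower by any amount, 1.31% were lower by 0.5 or more and 0.681% higher by as much. Jak3, the kinase bound to the common gamma chain, had a level of 9.88 on the array labelled mir155KO and 9.86 on the array labelled mir155WT. Jak1, the kinase of the private chains, had a difference of -0.03, Stat5a one of 0.06, Stat5b one of 0.10 and Stat6, which relays IL-4, one of -0.01. The lowest were Jak2 (-0.22) and the adaptor gene Shc1 (-0.20), and the highest were Pik3r1 (0.25), a regulatory subunit of phosphoinositide 3-kinase, and the phosphatase gene Ptpn6 (0.10). The 4 expressed probe sets of Pik3r1 ranged from -0.03 to 0.49.

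Among 5 feedback inhibitors 2 were lower and 3 higher, where 42.1% of all expressed genes were lower and 1.31% lower by 0.5 or more. Socs3, which blocks receptor-bound JAK kinases, had a level of 10.34 on the array labelled mir155KO and 10.95 on the array labelled mir155WT, a difference of -0.61, and its 3 expressed probe sets ranged from -0.61 to -0.57. Socs1 had a difference of -0.29. Cish (0.06), a direct STAT5 target that inhibits the same pathway, and Socs2 (0.13) were the highest members, although the 4 probe sets of Socs2 ranged from -0.16 to 0.46.

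Response genes of the receptors differed by less than 0.5 with 1 value a gene, although single probe sets passed it. In the list of STAT5 response genes 12 of 13 were expressed, 3 lower and 9 higher, with a median of 0.07 against 0.03 for all expressed genes, and 0 differed by 0.5 or more. Pim2 (0.41), a survival kinase, and Myc (0.17) were the highest, and Pim1 (-0.14) and Mcl1 (-0.08), an anti-apoptotic gene, the lowest. Bcl2, the anti-apoptotic gene through which IL-7 is known to keep lymphocytes alive, had a level of 12.25 on the array labelled mir155KO and 12.31 on the array labelled mir155WT. In the list of STAT6 response genes 9 of 11 were expressed, 3 lower and 6 higher, with a median of 0.07. Of all expressed genes 42.1% were lower, or 50.7% with quantile normalization and 52.6% with a loess curve subtracted, and nothing is read from the counts of these short lists. Fcer2a, the low-affinity IgE receptor CD23, was highest (0.37), followed by Batf (0.32), a factor needed for class switching. The costimulatory gene Cd86 was lowest (-0.42), followed by Socs1. Pim2, Fcer2a and Cd86 lay outside the central 95% of expressed genes. The 2 probe sets of Fcer2a ranged from 0.37 to 0.51, and the 4 of H2-Aa, a class II gene, from 0.08 to 0.65. The 2 probe sets of Cd86 ranged from -0.42 to -0.21.

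**Figure D4:**
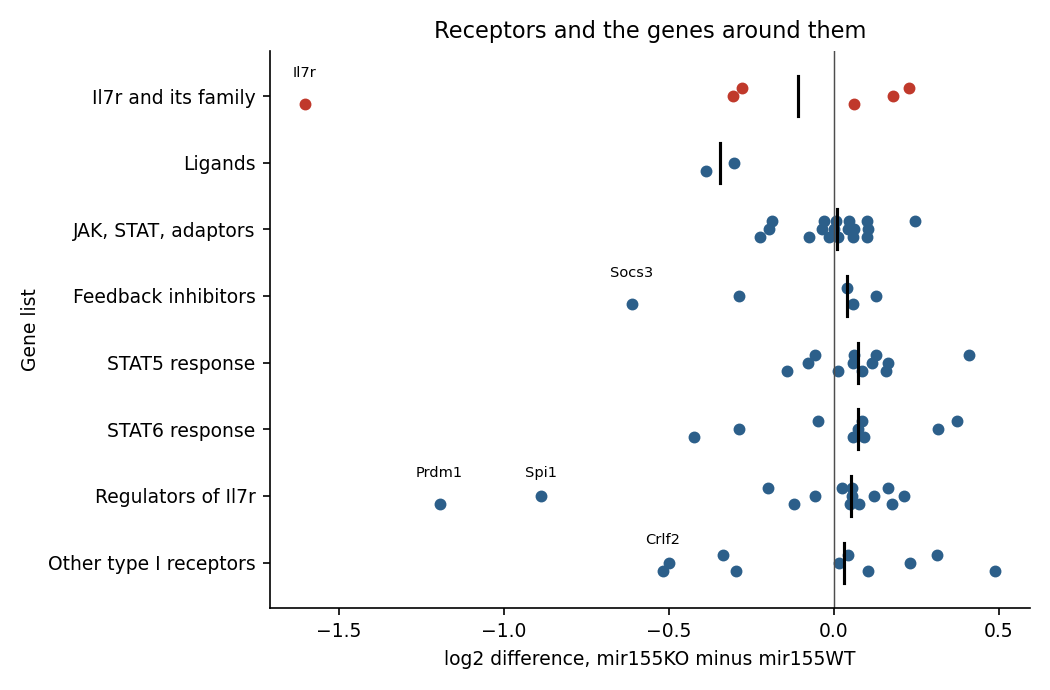
log2 difference, mir155KO minus mir155WT (x axis), of each expressed gene in the receptor family (red) and in 7 lists around it (blue), with the median of each list as a black bar. Genes that differ by 0.5 or more are named: Il7r at -1.60, Prdm1 at -1.19, Spi1 at -0.89, Socs3 at -0.61 and Crlf2 at -0.52.

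Transcription factors known to control Il7r in lymphocytes were measured beside it. The list holds both activators and repressors, and all 14 were expressed, 5 lower and 9 higher. Spi1 encodes PU.1, an ETS factor that binds the Il7r promoter in B cell precursors, and it had a level of 10.18 on the array labelled mir155KO and 11.06 on the array labelled mir155WT (difference -0.89). Gabpa, the ETS factor reported to act at the same promoter in T cells, was the highest of the list, with 11.03 on the array labelled mir155KO and 10.82 on the array labelled mir155WT (difference 0.21), followed by Tcf3, the gene of E2A (0.18). Foxo1, an activator of Il7r in naive lymphocytes, had a difference of -0.06, and Gfi1, a repressor of it, one of 0.16. Prdm1, a repressor of Il7r in T cells, was lower (-1.19). Spi1 and Prdm1, each read by 1 probe set, were the members of the list that differed by 0.5 or more. Over all expressed genes 42.1% were lower by any amount and 1.31% by 0.5 or more. The list was chosen with earlier results of these data known, and nothing is read from its counts.

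The promoters were searched for an ETS motif (AGGAAGT), a STAT motif (TTCNNNGAA) and an interferon regulatory factor motif (GAAA, any 2 bases, GAAA), on both strands. The ETS motif was present in 2 of the 9 promoters of listed genes, those of Il7r and Il2ra printed above, and in 9.35% of all 32817 promoters of the same length. On the printed strand it reads ACTTCCT and begins at -49 from the start site in Il7r and at -35 in Il2ra. Neither promoter of Il15ra held it, although both Il15ra probe sets read lower (-0.30 and -0.49). The STAT motif was present in 1 promoter, at -142 in Il7r, and in 8.29% of all promoters. The interferon regulatory factor motif was present in 0 of the 9 and in 3.43% of all promoters. The matches did not overlap. A match describes these letters and does not show that a factor binds there.

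Other type I cytokine receptors, which share the fold of these chains, did not approach the difference of Il7r. Of 22 listed genes 18 were measured and 10 expressed, 4 lower and 6 higher on the array labelled mir155KO, with a median of 0.03. Over all expressed genes the median was also 0.03, and 42.1% were lower. The lowest was Crlf2, the chain that joins the IL-7 receptor alpha chain to form the receptor for thymic stromal lymphopoietin (TSLP). Its level was 11.20 on the array labelled mir155KO and 11.72 on the array labelled mir155WT, a difference of -0.52. Both chains of the TSLP receptor therefore read lower on the array labelled mir155KO. Crlf2 was read by 1 probe set, and no joint change is read from these values. Tslp itself was below the median level on both arrays. Csf2rb, the beta chain shared by the receptors for GM-CSF and IL-3 and IL-5, had 8.98 on the array labelled mir155KO and 9.48 on the array labelled mir155WT, just short of a difference of 0.5. Il5ra, the IL-5 receptor alpha chain, was highest (0.49), followed by Il27ra (0.31).

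Because T cells, innate lymphoid cells and early B lineage cells also carry the IL-7 receptor, their markers were read on the same arrays. Of the mature B cell markers all 9 measured genes were expressed, which goes with the B cell label, and all were higher on the array labelled mir155KO. They ran from Cr2 (0.08) and Ighm (0.08) to Fcer2a (0.37) and Blk (0.50, just under the threshold). The 8 probe sets of Ighm ranged from -0.32 to 1.04. Of all expressed genes 42.1% were lower, or 36.9% with a filter at the 75th percentile of level. The share was 50.7% with quantile normalization and 52.6% with a loess curve subtracted. Of 9 early B lineage markers 6, among them Rag1, Rag2, Dntt and Vpreb1, were below the median level on both arrays. The expressed markers of that list were Vpreb3 (0.31), Sox4 (0.17) and Igll1 (0.02), all higher on the array labelled mir155KO. The 2 probe sets of Sox4 ranged from 0.17 to 0.76. Nothing is read from the counts of these short marker lists. The intensities of the list summed to 1308 on the array labelled mir155KO and 1181 on the array labelled mir155WT. Such a sum, here and below, follows the brightest probe sets of its list.

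T cell markers were at similar levels on the arrays. Of 11 measured, 4 were below the median level on both arrays, Cd3g, Cd247, Cd5 and Cd28, and 6 were expressed, 3 lower and 3 higher, from Cd3d (-0.12) and Cd8a (-0.08) to Lat (0.14) and Cd3e (0.25). Their summed intensity was 1707 on the array labelled mir155KO and 1728 on the array labelled mir155WT. Of 9 measured markers of innate lymphoid and natural killer cells 4 were below the median level on both arrays, among them Gata3, and of the 5 expressed 4 were higher and Tbx21 (-0.21) lower; Rora (0.33), Gzma (0.17) and Gzmb (0.01) were among the higher ones. That list summed to 4421 on the array labelled mir155KO and 4778 on the array labelled mir155WT. Tbx21 was its brightest gene, with 11.50 on the array labelled mir155KO and 11.70 on the array labelled mir155WT, and the sum mainly follows it. Among all expressed genes 42.1% were lower, and nothing is read from the counts of either list.

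Most expressed markers of macrophages and dendritic cells were lower on the array labelled mir155KO, several of them at levels close to the median level. Of 10 measured macrophage and monocyte markers 8 were expressed and 6 of these lower. The 8 had a median of -0.22, from Tyrobp (-0.39) and Cd14 (-0.35) to Adgre1 (0.03) and Ccr2 (0.06). Cd14 had a level of 6.85 on the array labelled mir155KO and 7.21 on the array labelled mir155WT. In the same order, Lyz2 and Cd68 each had 6.88 and 7.12, and Fcgr1 had 6.69 and 6.89. These levels were close to the median level and may be partly background. Of all expressed genes 42.1% were lower, or 50.7% with quantile normalization and 52.6% with a loess curve subtracted. The share was 49.7% without a filter and 36.9% with a filter at the 75th percentile. Nothing is read from the count of this list. The list summed to 1641 on the array labelled mir155KO and 1896 on the array labelled mir155WT, with Itgam and Mertk below the median level on both. Of 7 measured dendritic cell markers 4 were expressed and 3 of these lower, namely Zbtb46 (-0.44), Flt3 (-0.27) and Ccr9 (-0.18), against Batf3 (0.37). That list summed to 2151 on the array labelled mir155KO and 2504 on the array labelled mir155WT, with Zbtb46 its brightest gene. Of 6 plasma cell markers 5 were expressed, with Prdm1 (-1.19) and Jchain (-0.56) lower and Irf4 (0.05) and Sdc1 (0.07) near 0. Of 9 markers of progenitors and neutrophils 7 were below the median level on both arrays, and the expressed ones were Camp (-0.07) and Prtn3 (-0.05). That list summed to 720.4 on the array labelled mir155KO and 713.2 on the array labelled mir155WT. The part of these cell types in the difference of Il7r was not tested.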

How the data were processed

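RNA of 2 samples, 1 array each, was profiled on an Affymetrix 3′ expression array. Biotin-labelled cRNA was made with the 3′ IVT Express kit from Trizol-extracted RNA, per the labels' protocols. The authors deposited log2 intensities of 45101 probe sets, between 3.09 and 15.4, the unit being read from the values. How the authors summarised and normalized them is not stated in the labels. Once sorted, the values of the arrays were at most 0.063 apart, so a difference in total RNA per cell would not be visible. Depth does not apply to arrays, and their number limits the precision.

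Groups follow the titles. Probe sets were named from the platform annotation where it lists a single gene (34945 probe sets, 34741 matched by Entrez number to RefSeq genes of GRCm38.p6 and 0 symbols changed). A gene took its probe set with the highest mean, and 10717 of 18193 genes were expressed, that is at or above the median level of 6.71. Listed genes without such a probe set were not analysed here. Members and lists were chosen with earlier results of these data known. Genes named are all members, the 2 highest and 2 lowest expressed genes of each list, genes that differed by 0.5 or more, the 5 genes nearest to Il7r, and chromosomal neighbours; Oasl2, Bcl2, Jak1, Jak3, the STAT genes, Foxo1, Gfi1, Il7 and single markers below the median level were named after their values were seen. The planned comparison of receptor proteins was not made. The functions were tested on simulated data. Alternatives were a loess correction of the difference by level (span 0.3), quantile normalization, averaging the probe sets of a gene, plain _at probe sets, no filter, a filter at the 75th percentile, and a difference of 1. Tables were handled with pandas 2.3.3 and NumPy 2.4.6 under Python 3.11.15, the loess fit used statsmodels 0.14.6 and the plots matplotlib 3.10.9.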

Additional observations from a re-analysis of the deposited data

How the results depend on the processing

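No paired analysis was possible because each label has 1 array, and for the same reason no array could be left out. The difference of Il7r was -1.60 as reported. It was -1.64 with quantile normalization, -1.65 with the loess curve subtracted and -1.62 with the mean of its probe sets. The other settings could not change it, because a filter alters no gene's difference and its brighter probe set is a plain _at one. In each of the 6 settings Il7r had the lowest or second lowest difference of the genes kept. The count of members lower by 0.5 or more was 1, and that of members higher by as much was 0, in each of these settings, and 1 member was lower by 1 or more. The count of members lower by any amount was 3, or 4 without a filter on low values. The signs of the other expressed members held in each setting that gave them a value (Il4ra has no plain _at probe set). The probe set of Il15ra at -0.49 passed 0.5 with quantile normalization (-0.53) and with the loess curve subtracted (-0.54). Of the 5 probe sets of Il13ra1, 1 turned just above 0 in both of those settings. Over all expressed genes, 140 were lower and 73 higher by 0.5 or more, against 167 and 52 with quantile normalization, 172 and 53 with the loess curve subtracted, 97 and 45 with the mean of probe sets, 252 and 107 without a filter and 85 and 24 with the stricter filter. The share of genes lower by any amount was 42.1% as reported and 52.6% with the loess curve subtracted. Of 173 alternative values 15 changed sign, none of them that of an expressed member. The medians of short lists were less stable. The feedback inhibitors turned from 0.04 to -0.29, and the other type I receptors from 0.03 to -0.50, with the stricter filter, which leaves fewer genes. With the mean of probe sets they turned to -0.12 and -0.06. The feedback inhibitors also turned to -0.02 both with quantile normalization and with the loess curve subtracted. The signalling list turned from 0.01 to -0.04 with the loess curve subtracted, the plasma cell markers from 0.03 to -0.28 with the mean of probe sets, and the T cell markers from -0.01 to 0.05 with that mean. The innate lymphoid list turned from 0.11 to -0.11 without a filter, and the early B lineage markers moved from 0.17 to 0.53 with plain _at probe sets.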
